A study of Mus musculus with 3 samples.

Results

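The transcripts of 10 genes that write, maintain or remove DNA methylation were followed in an RNA immunoprecipitation sequencing (RIP-seq) experiment on YTHDF2, a cytoplasmic reader of N6-methyladenosine (m6A) marks that sends the RNA it holds to degradation. The 10 genes were taken by symbol from the 49997 genes of the count table, namely Dnmt1, Dnmt3a, Dnmt3b, Dnmt3l, Uhrf1, Uhrf2, Tet1, Tet2, Tet3 and Tdg, and all 10 passed the filter on low counts that left 19601 genes for testing. The cells were mouse embryonic stem cells (ESCs) of the E14 line, an established line from an early embryo, exposed to doxycycline (Dox) for 24 h. All 3 libraries came from such cells, so no library of untreated cells is compared here. The first group was the input, a single library made without pulldown, and the other was the YTHDF2 IP, with replicates 1 and 2 recovered by an antibody against YTHDF2. In the cell system of the study, ESCs carry a Dox-inducible Dux transgene and a reporter driven by the MERVL promoter, and Dox drives some of the cells into a 2C-like state, named after the 2-cell embryo. No pulldown with a control antibody was analysed here. The study calls the RNA set against the IP total RNA, but whether that means whole cells or cleared lysate is not given in the sources used here, so a fold change of IP over input may also hold a difference in starting RNA, which cannot be told apart. An IP level below the input therefore says that a transcript took a smaller share of the IP library than of the input library, not that it was free of YTHDF2.

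DNA methylation in mammals sits mainly on cytosines of CpG pairs. DNMT3A and DNMT3B place new marks, DNMT3L assists them without catalytic activity of its own, and DNMT1 copies the pattern onto the new strand at replication, brought there by UHRF1, which recognises hemimethylated CpG sites. TET1, TET2 and TET3 oxidise 5-methylcytosine, and TDG excises the later oxidation products, after which base excision repair restores an unmethylated cytosine. The methylome of mouse ESCs is known to shift with culture conditions.

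The count tables hold no position within a transcript, so the sequences serve to identify the transcripts and to show the letters that an m6A reader could meet. The last 120 bases of the coding sequence, stop codon included, are shown for 4 genes, since m6A is known to gather around stop codons. Tet3 was the member that was higher in the IP, Tdg was the lowest in its own row, Dnmt3b was the other member past 2-fold, and Dnmt1 copies the methylation pattern. Capitals mark GGACT, a frequent m6A sequence context, searched on the transcript strand alone because the other strand is not in the RNA. The sequences are RefSeq coding sequences read from GRCm38.p6 (the assembly of mm10).
Tet3, chr6:83368042-83368161, minus strand: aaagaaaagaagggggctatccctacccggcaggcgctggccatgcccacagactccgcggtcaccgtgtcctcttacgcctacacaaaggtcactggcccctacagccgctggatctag
Tdg, chr10:82648601-82648720, plus strand: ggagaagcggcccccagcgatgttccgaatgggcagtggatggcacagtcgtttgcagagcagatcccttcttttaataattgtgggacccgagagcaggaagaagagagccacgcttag
Dnmt3b, chr2:153686280-153686399, plus strand: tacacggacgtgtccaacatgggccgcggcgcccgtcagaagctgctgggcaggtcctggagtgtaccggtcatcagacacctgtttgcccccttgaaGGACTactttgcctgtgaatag
Dnmt1, chr9:20907521-20907949, minus strand, with an intron left out: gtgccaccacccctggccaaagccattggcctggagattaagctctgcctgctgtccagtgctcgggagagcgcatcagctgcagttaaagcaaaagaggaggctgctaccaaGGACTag
GGACT was found once in the windows of Dnmt3b and Dnmt1 and in neither of those of Tet3 and Tdg. The same window, not shown, held no GGACT in Dnmt3a, Dnmt3l, Tet1, Tet2, Uhrf1 and Uhrf2. Of 20992 genes with a curated coding transcript, 2771 (13.2%) held GGACT in this window. A match is a run of letters and not a measured m6A site.

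The libraries were of like depth, with total counts from 35259827 to 36986994. Between the 2 IP libraries, log2 ratios had an SD of 0.20 across the 12620 genes whose counts averaged 100 or more. All 10 markers of mouse ESCs were present, at 154 to 5993 TPM (counts divided by exonic length and scaled to a common sum, hence a level per length) in the input. All 10 markers of the 2C-like state were also above 3 counts, and their summed level was 2996 CPM (counts scaled to a common library total) in the input and 4997 and 4994 CPM in IP replicates 1 and 2. The part of this difference in the results was not tested. The 7 fibroblast markers summed to 21.3 to 32.4 CPM with Thy1 (994, 498 and 543 counts) the largest and Col3a1 at 0 in the input, the 5 primitive endoderm markers to 12.1 to 20.2 CPM, the 3 blood markers to 0.784 to 1.23 CPM, and the 4 trophoblast markers to 69.1 to 81.4 CPM, nearly all from Tfap2c, which ESCs also express. Mitochondrially encoded genes took 1.67% of input counts but 0.0362% and 0.0365% of IP counts. Without those genes the median log2 fold change of the 10 transcripts was −0.68, as with them. Leaving out so small a share of the counts could hardly move it. Whether the mitochondrial difference bears on the 10 transcripts was not tested.

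Most transcripts of the DNA methylation machinery were lower in the YTHDF2 IP than in the input. By the quasi-likelihood F test of edgeR with Benjamini-Hochberg adjustment over all 19601 genes, 9 of the 10 were lower at an adjusted p under 0.05, against 28.9% of all genes tested, and Tet3 alone was higher, against 28.4%. The shares over all genes take in genes of few reads, which pass less easily. Only 12620 of the 19601 averaged 100 counts or more, as all 10 members did. The calls of the 10 rest on the small spread between the 2 IP libraries. With the dispersion fixed at 0.1, only Tdg passed the adjusted p, and the other 9 had values of 0.136 to 0.667. Past a 2-fold difference, 2 of the 10 were depleted from the IP (Dnmt3b and Tdg), against 13.0% of all genes (2543), and 0 were enriched, against 15.0% (2936). Under scaling by TPM the split over all genes was 2003 depleted and 3558 enriched. The adjusted p of the 10 ran from 2.30e-16 to 0.022. Tet3, the highest, was under 2-fold, so the enriched count was bound to be 0 at an unadjusted p under 0.05 as well, and it was 0 with DESeq2. The call of Tdg holds for its own row alone, since 85.9% of its transcript has near-identical copies elsewhere in the genome. With those copies added, Dnmt3b was the only depleted member. Both IP libraries lay below the input in 9 of 10 members, against 45.3% of all genes, and above it in 1, against 44.2%. The median log2 fold change was −0.68 over the 10 members and 0.0063 over all genes tested, whose quartiles were −0.72 and 0.81. The input had no replicate, so the only spread measured was that between the 2 IP libraries. Nothing in the labels says that these came from separate cultures. The error of each fold change also borrows from all genes tested, since the edgeR fit draws the dispersion of a gene toward a trend. It is thus not the spread of that gene's own IP values, which in Tet2 had an SD of 0.0078 against an SE of 0.062.

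**Figure D1:**
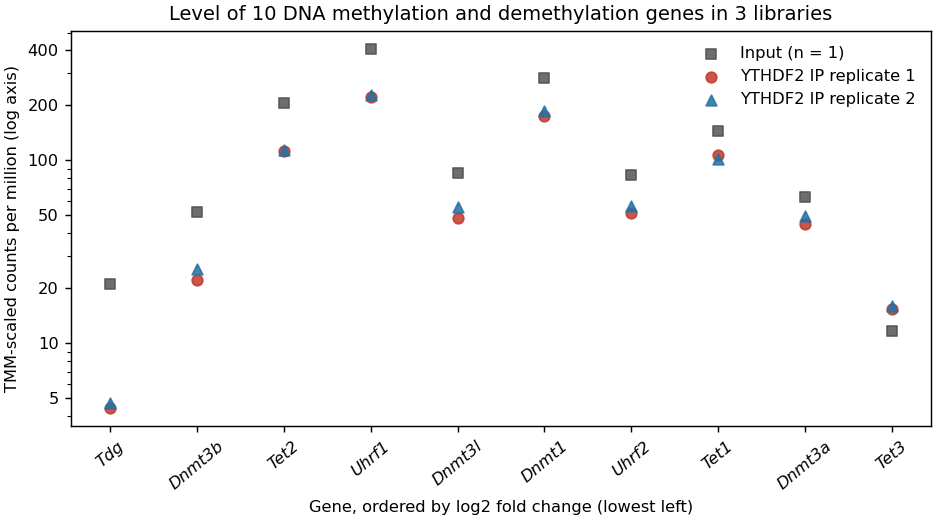
TMM-scaled CPM (log axis) of each of the 10 genes in the input (squares, 1 library) and in YTHDF2 IP replicates 1 (circles) and 2 (triangles), with the genes ordered by log2 fold change. The input square lies above both IP points in 9 genes and below them in Tet3, and the 2 IP points of a gene lie close together.

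The maintenance enzyme Dnmt1 (chr9:20907206-20959888, minus strand) had 283 CPM in the input, 174 CPM in IP replicate 1 and 187 CPM in IP replicate 2, scaled by TMM (the trimmed mean of M values). Its log2 fold change was −0.65 ± 0.060 (SE of the edgeR fit), a level in the IP of 63.7% of the input (edgeR, adjusted p = 5.56e-12). Both IP libraries were lower than the input by more than they differed from each other.

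Uhrf1 (chr17:56303337-56323486, plus strand), the partner that brings DNMT1 to hemimethylated DNA, was the most abundant of the 10, with 405 CPM in the input and 223 and 228 CPM in the IP. The log2 fold change was −0.85 ± 0.055 (SE; edgeR, adjusted p = 2.30e-16), which left 55.7% of the input level. Uhrf2 (chr19:30030430-30093726, plus strand) encodes a related RING finger protein that binds hydroxymethylated DNA. It was measured at 83.0 CPM in the input and at 51.8 and 56.7 CPM in the IP, giving a log2 fold change of −0.61 ± 0.084 (SE; edgeR, adjusted p = 5.21e-08). Dnmt1, Uhrf1 and Uhrf2 thus kept 55.7% to 65.3% of their input level in the IP. With the trend over exon density removed, their log2 fold changes were −0.19, −0.54 and −0.35, in that order. With the trend over GC content removed, they were −0.87, −1.06 and −0.46. The log2 fold change of Uhrf2 exceeded that of Uhrf1 by 0.23, with a 95% interval of 0.035 to 0.43, and by 0.18 and 0.28 in IP replicates 1 and 2 taken singly. It was 0.60 with the trend over GC content removed.

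Among the de novo enzymes, Dnmt3b (chr2:153649411-153687730, plus strand), the catalytic form that is prominent in early embryonic cells, was the most depleted. It had 52.5 CPM in the input, 22.1 CPM in IP replicate 1 and 25.6 CPM in IP replicate 2, so both IP libraries were below the input with log2 ratios of −1.24 and −1.03. The log2 fold change was −1.14 ± 0.110 (SE; edgeR, adjusted p = 2.17e-11), or 2.20-fold lower. It lay close to the 2-fold line, and it fell inside that line under scaling by TPM (−0.98) and with the trend over exon density removed (−0.88). With the dispersion fixed at 0.1, a value for variation the single input cannot show, its adjusted p was 0.136.

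Dnmt3a (chr12:3801559-3914443, plus strand), the other catalytic form, was measured at 63.5 CPM in the input and at 44.7 and 49.5 CPM in the IP libraries. Its difference was among the smallest, at −0.43 ± 0.092 (SE; edgeR, adjusted p = 0.00012). Dnmt3l (chr10:78042287-78063622, plus strand), the cofactor without catalysis, had 85.4 CPM in the input and 48.3 and 56.0 CPM in the IP, giving a log2 fold change of −0.71 ± 0.087 (SE; edgeR, adjusted p = 6.12e-09). The 3 Dnmt3 transcripts kept the same order in both IP libraries, with Dnmt3a the least and Dnmt3b the most depleted. The difference between Dnmt3a and Dnmt3b was 0.70 on the log2 scale (95% interval 0.42 to 0.99), that between Dnmt3l and Dnmt3b was 0.42 (0.15 to 0.70), and that between Dnmt3a and Dnmt3l was 0.28 (0.034 to 0.53). These are descriptions from the SE of each gene, with no test. With the trend over exon density removed, Dnmt3a at −0.61 was below Dnmt3l at −0.26, a turned order, and the gap between Dnmt3a and Dnmt3b was 0.27. As a share of the summed TPM of the 3 genes, Dnmt3b stood at 20.8% before pulldown and at 16.1% and 16.2% after it.

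The Tet family held both directions. Tet2 (chr3:133463677-133545136, minus strand), the most abundant of the 3, had 207 CPM in the input and 112 and 113 CPM in the IP, giving a log2 fold change of −0.88 ± 0.062 (SE; edgeR, adjusted p = 3.79e-15). Tet1 (chr10:62804570-62887469, minus strand), the form best known from ESCs, had 146 CPM in the input and 107 and 102 CPM in the IP, giving a log2 fold change of −0.48 ± 0.067 (SE; edgeR, adjusted p = 9.54e-08). The value of Tet1 was −0.19 with the trend over GC content removed and −0.68 with the trend over exon density removed. Tet3 (chr6:83362373-83457208, minus strand), known as the form of the oocyte and zygote, had 11.8 CPM in the input and 15.4 and 16.0 CPM in the IP libraries. Both IP libraries were above the input, by 0.39 and 0.45 on the log2 scale, and the fitted value was 0.42 ± 0.157 (SE; edgeR, adjusted p = 0.022). Tet3 rested on the fewest input reads of the 10, with counts of 416, 557 and 587. Its adjusted p was 0.169 with DESeq2, 0.368 with the GC trend removed, 0.209 with the exon density trend removed and 0.667 with the dispersion fixed at 0.1, while its direction did not change.

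Within the family the fold change of Tet3 stood above that of Tet2 by 1.29 on the log2 scale (95% interval 0.96 to 1.63), or 2.45-fold, and above that of Tet1 by 0.90 (0.56 to 1.23). The gap was of like size in IP replicates 1 and 2, at 1.27 and 1.32 against Tet2 and at 0.84 and 0.96 against Tet1. Tet1 exceeded Tet2 by 0.40 (0.22 to 0.58). With the trend over GC content removed, Tet3 stood above Tet1 by 0.36 and above Tet2 by 0.84. As a share of the summed TPM of the 3 genes, Tet3 stood at 3.01% before pulldown and at 6.41% and 6.71% after it. Tet2 stood at 70.9% before it and at 62.5% and 63.4% after it.

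Tdg (chr10:82629814-82650799, plus strand), the glycosylase of active demethylation, had the lowest fold change of the 10 in its own row of the table. It had 21.2 CPM in the input and 4.43 and 4.72 CPM in the IP libraries, with counts of 749, 160 and 173. The log2 fold change was −2.21 ± 0.177 (SE; edgeR, adjusted p = 1.02e-13), which left 21.6% of the input level. With the dispersion fixed at 0.1, Tdg was the only member still past the threshold (adjusted p = 0.0015), against 7.81% of all genes depleted in that fit.

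The Tdg value is uncertain, because reads of its mRNA and of its copies may be hard to separate. By alignment of the curated transcript to GRCm38.p6, stretches of 150 bases or more at 98.6% to 99.6% identity were found on chromosomes 7, 10, 15 and 19, and together they covered 3026 of its 3523 bases. The pseudogene Tdg-ps2 (chr10:42052554-42055356 in the alignment) held more reads than Tdg itself, with counts of 3324, 3325 and 3623 across the input and IP replicates 1 and 2. It showed no difference past the threshold (log2 fold change 0.023 ± 0.074, SE; edgeR, adjusted p = 0.812). Tdg-ps had counts of 15, 20 and 40, and Gm5597 and Gm18293 had at most 6. Added up, Tdg and these 4 copies had counts of 4094, 3507 and 3836, and their log2 fold change was −0.20 ± 0.071 (SE; edgeR, adjusted p = 0.017). The sum was thus slightly lower in the IP, within 2-fold, and how reads were divided between Tdg and Tdg-ps2 was not tested. The counting also did not use strand, and exons of Tdg overlap those of Glt8d2 on the opposite strand over 369 bases, 10.4% of its exonic length. Counts of Glt8d2 were 9, 2 and 2.

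Of the other members, Uhrf1 had a stretch of like kind on chromosome X, at 97.7% identity over 72.3% of its transcript, within the pseudogene Gm5648. That pseudogene had counts of 111, 22 and 41, and with them added Uhrf1 was at −0.85 as before. Dnmt3b shared 190 bases at 98.9% identity with its neighbour Dnmt3c, counted here under the symbol Dnmt3b-ps1, whose counts were 15, 1 and 8. The remaining 7 had no such stretch. Tet1 overlaps Gm51805 over 344 bases, and that gene had 0 counts in every library.

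**Figure D2:**
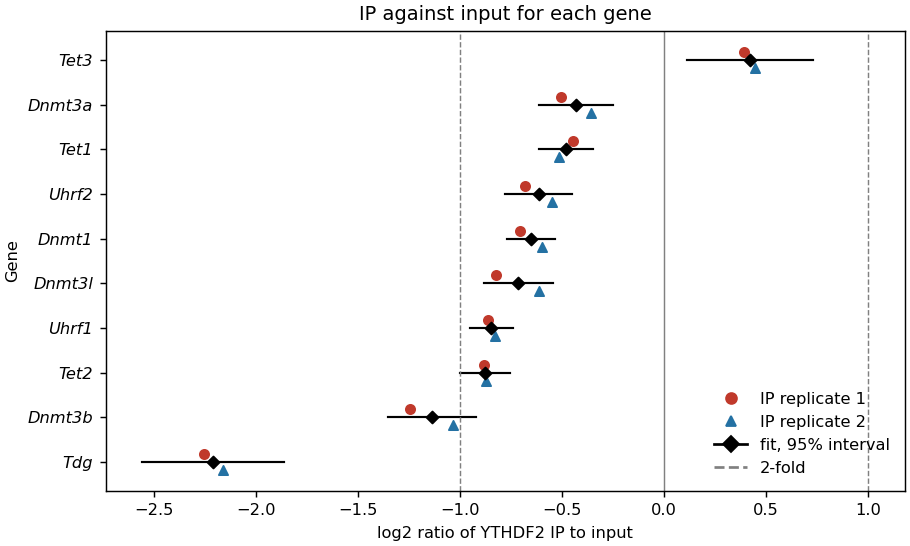
Log2 ratio of YTHDF2 IP to input for each gene, with IP replicate 1 as circles, IP replicate 2 as triangles, and the fitted log2 fold change with its 95% interval as diamonds and bars. Dashed lines mark 2-fold, solid grey marks no difference. Tdg (own row, without its copies) and Dnmt3b lie beyond the lower dashed line, 7 genes lie between it and 0, and Tet3 lies above 0.

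The 2 IP libraries gave close values for each gene, and the log2 value of IP replicate 1 minus that of replicate 2 ran from −0.21 in Dnmt3l to 0.071 in Tet1. In the plot of fold change against level, the 10 transcripts covered mean levels from about those of Tdg to those of Uhrf1 and sat within the body of all genes, below 0 except for Tet3. Tdg, without its copies, was nearest the lower edge. The percentile of the log2 fold change among all genes tested was 3.74 for Tdg, 14.8 for Dnmt3b, 20.8 for Tet2, 21.7 for Uhrf1, 25.3 for Dnmt3l, 27.1 for Dnmt1, 28.4 for Uhrf2, 32.7 for Tet1, 34.4 for Dnmt3a and 64.0 for Tet3.

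**Figure D3:**
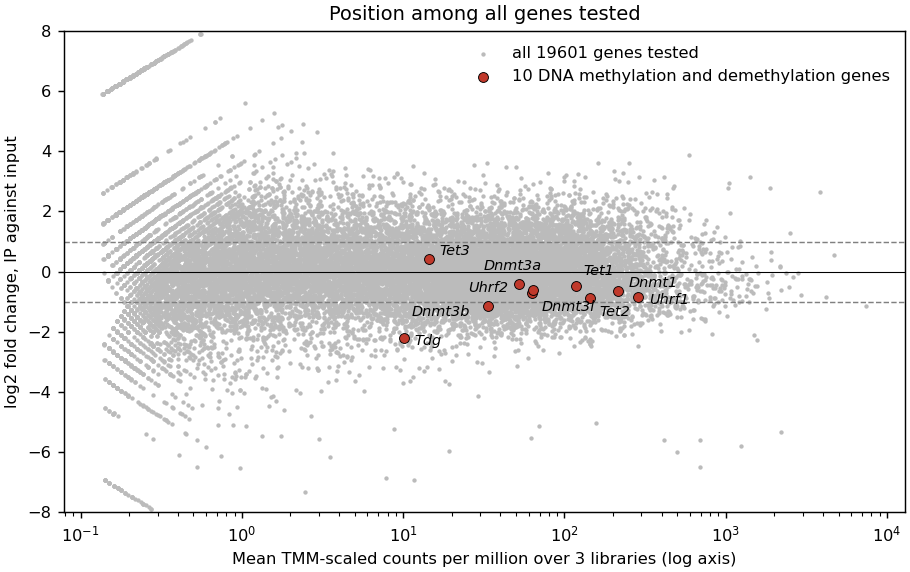
Mean TMM-scaled CPM over the 3 libraries (log axis) against the log2 fold change of IP over input, with all 19601 genes tested in grey and the 10 DNA methylation and demethylation genes in red. Dashed lines mark 2-fold, and 21 genes beyond 8 on the log2 scale are not drawn. The 10 genes lie within the cloud of all genes, with 9 below 0.

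Levels per length were compared as TPM over the exonic length of the table. They are averages over all cells, in which fewer cells of a type and less RNA per cell cannot be told apart. In the input, Uhrf1 was at 222 TPM, Dnmt1 at 91.2 TPM, Dnmt3l at 65.1 TPM, Uhrf2 at 46.6 TPM and Tet2 at 43.8 TPM. Lower levels were found for Dnmt3b at 18.4 TPM, Tet1 at 16.1 TPM, Tdg at 12.1 TPM, Dnmt3a at 5.23 TPM and Tet3 at 1.86 TPM. The maintenance genes Uhrf1 and Dnmt1 thus held the top of the order and Tet3 its end. The first 5 genes kept their order in both IP libraries, from 136 and 138 TPM for Uhrf1 to 26.5 and 26.6 TPM for Tet2. Dnmt3b, at 8.67 and 9.98 TPM, stood below Tet1, at 13.2 and 12.5 TPM, and Tdg, at 2.83 and 3.00 TPM, stood below Dnmt3a, at 4.10 and 4.52 TPM. Tet3 was last at 2.72 and 2.81 TPM, a gap to Tdg of the size of the spread between IP libraries. The order of the lowest genes depends on the length used, and the place of Tdg leaves its copies out. The exons of Dnmt3a in the table add up to 24667 bases, against 9735 bases in its curated transcript, and per kilobase of the latter Dnmt3a was above Tdg in the input too and Tet3 was above Tdg in the IP.

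The transcripts differ in structure. In the RefSeq transcript with the longest coding sequence, the longest internal exon was 2203 bases in Tet1, 3206 bases in Tet2 and 2158 bases in Tet3, and 188 to 283 bases in the other 7. The 3′ UTR was longest in Tet1 at 7962 bases and shortest in Dnmt3l at 273 bases, with 5669 bases in Tet3 and 2079 bases in Tdg. Within 500 bases of the stop codon GGACT was found 3 times each in Dnmt3b and Tdg, 2 times in Uhrf1, once in Dnmt1 and not in the other 6. Over the merged exons, GGACT density had a median of 0.986 per kilobase in the 10 and 1.01 in all genes with sequence, and the density of the wider DRACH consensus was 18.78 against 19.98 per kilobase. These letters were counted with no measure of m6A.

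All 10 genes had more merged exons than the median of all genes tested, at 10 to 41 against 7. Exons per kilobase of exonic length had a median of 3.57 in the 10 and 2.37 in all genes. Over all genes, the median log2 fold change was 0.32 in the quintile with the fewest exons per kilobase, then 0.27, 0.10 and −0.089, and −0.36 in the quintile with the most. Dnmt1, Dnmt3l and Uhrf1 were in the last of these quintiles, Dnmt3b and Uhrf2 in the fourth, Tdg in the third, Dnmt3a, Tet2 and Tet3 in the second and Tet1 in the first. With the trend over exon density removed, the log2 fold change was −0.19 for Dnmt1, −0.26 for Dnmt3l, −0.54 for Uhrf1 and −0.35 for Uhrf2, and it was −1.04 for Tet2 and −0.68 for Tet1. Tdg, without its copies, was −2.14 in that fit and Tet3 was 0.23, so 9 of the 10 remained below 0. With the trend over GC content removed, Tet1 was −0.19, Dnmt1 was −0.87 and Uhrf1 was −1.06, past 2-fold. The part of exon density and GC content in the fold changes beyond these fits was not tested.

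**Figure D4:**
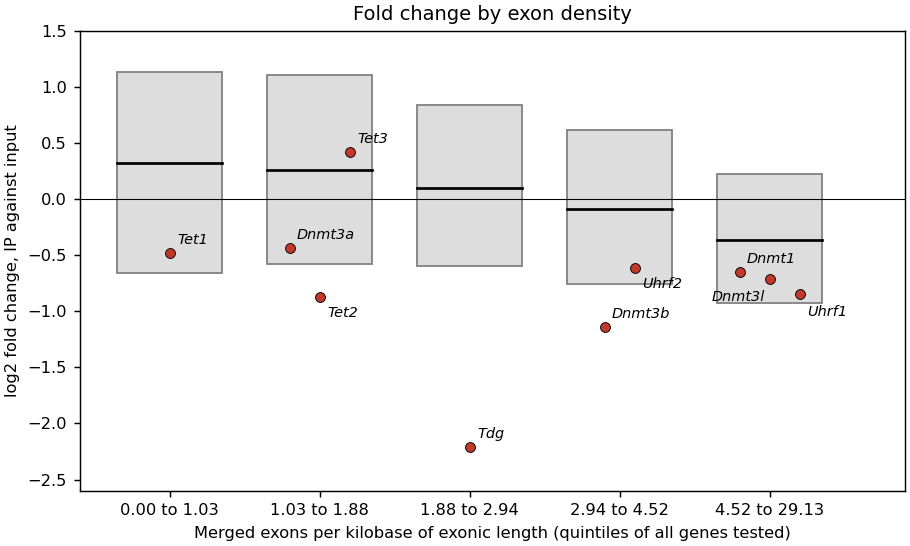
Log2 fold change of IP over input by exons per kilobase of exonic length, in quintiles of the 19601 genes tested, with the range of each quintile on the horizontal axis. Grey boxes run from the lower to the upper quartile of all genes with the median as a black line, and red points are the 10 genes, spread sideways for legibility. The medians go from 0.32 to −0.36, and Tdg (without its copies), Dnmt3b and Tet2 lie below the boxes of their quintiles.

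The genes that work with these enzymes were read from 4 lists. Of 23 partners of maintenance and de novo methylation, 15 were lower and 4 higher at an adjusted p under 0.05 (edgeR), with 7 depleted past 2-fold and 0 enriched, and a median log2 fold change of −0.50. Of all genes tested, 28.9% were lower, 28.4% higher, 13.0% depleted and 15.0% enriched, shares that take in genes of few reads, which pass less easily. Dnmt3c was among the 23 as Dnmt3b-ps1, which did not pass the test. The depleted ones were Hells, Cdca7, Cdca7l, Pcna, Smchd1, Hdac1 and Pclaf. Hells, a chromatin remodeller needed for methylation of repeats, had 307 CPM in the input and 66.4 and 61.8 CPM in the IP libraries (log2 fold change −2.26 ± 0.063, SE). Pclaf, which binds the replication clamp PCNA, was at −2.38 ± 0.123 and Hdac1, a histone deacetylase, at −2.28 ± 0.065. The higher end was held by histone methyltransferases, namely Ehmt2 at 0.83 ± 0.066, Nsd1 at 0.79 ± 0.060 and Setd2 at 0.60 ± 0.065, none of them past 2-fold.

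Of 9 methyl-CpG readers, 3 were higher and 2 lower at an adjusted p under 0.05, near the shares of 28.4% and 28.9% over all genes, and the median was −0.0091, next to that of all genes. Mbd3, a subunit of the NuRD complex, was enriched, with 130 CPM in the input and 411 and 430 CPM in the IP libraries (log2 fold change 1.69 ± 0.061, SE; edgeR, adjusted p = 1.03e-23). Mbd1 was at 0.25 ± 0.103. Zbtb33, which encodes the reader Kaiso, was depleted at −1.13 ± 0.188, Mbd2 was at −0.37 ± 0.100, and Zbtb38 at −0.25 ± 0.145 did not pass the test (edgeR, adjusted p = 0.142).

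Of 27 partners of demethylation and base excision repair, 26 were tested (Cxxc4 was too low), and 15 were lower and 6 higher (28.9% and 28.4% over all genes), with a median of −0.39. Here 6 genes were depleted past 2-fold (Mbd4, Parp1, Apobec3, Ogt, Idh1 and D2hgdh) and 6 enriched (Ung, Gadd45a, Gadd45b, Gadd45g, Apobec2 and Cxxc5), against 13.0% and 15.0% of all genes. Idh1, which makes the 2-oxoglutarate that TET enzymes consume, had 216 CPM in the input and 71.9 and 71.7 CPM in the IP libraries (log2 fold change −1.59 ± 0.065, SE). Parp1, a sensor of DNA strand breaks, was at −1.19 ± 0.050, and Apobec3, a cytidine deaminase that restricts retroviruses, at −1.94 ± 0.102. At the other end, Cxxc5, a CpG-binding zinc finger protein, had 47.3 CPM in the input and 213 and 189 CPM in the IP libraries (2.09 ± 0.078, SE). Apobec2 was at 2.36 ± 0.121 and Gadd45a, a stress-response gene, at 1.15 ± 0.099.

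Of 18 genes of the S-adenosylmethionine and folate cycle, which supplies the methyl group, 12 were lower and 2 higher (28.9% and 28.4% over all genes), with 6 depleted past 2-fold (Mat2b, Ahcy, Ahcyl1, Ahcyl2, Mtr and Mthfd1), 0 enriched (13.0% and 15.0% over all genes) and a median of −0.67. Ahcy, which clears the product S-adenosylhomocysteine, had 144 CPM in the input and 47.9 and 44.7 CPM in the IP libraries (log2 fold change −1.64 ± 0.075, SE). Mat2b, the regulatory subunit of methionine adenosyltransferase, was at −1.69 ± 0.100 and Ahcyl2 at −1.68 ± 0.138. Among the higher ones, Mthfd2, a mitochondrial folate enzyme, was at 0.58 ± 0.066 (SE; edgeR, adjusted p = 8.95e-10).

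The chart of alternatives gives the fold changes under each way of processing. The sign of every member was the same in all 14 alternatives with a test and with either IP library left out. Most alternatives change only the test, the filter or the scaling. These leave fold changes nearly as they were or move all genes alike, so they could hardly turn a sign. A removed trend, summed copies or a left-out IP library could move single members, and no sign turned there. Scaling by TPM moved the median of all genes to 0.157. That scaling moves each gene by the same amount, so the members kept their distance of −0.69 from the median by construction.

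**Figure D5:**
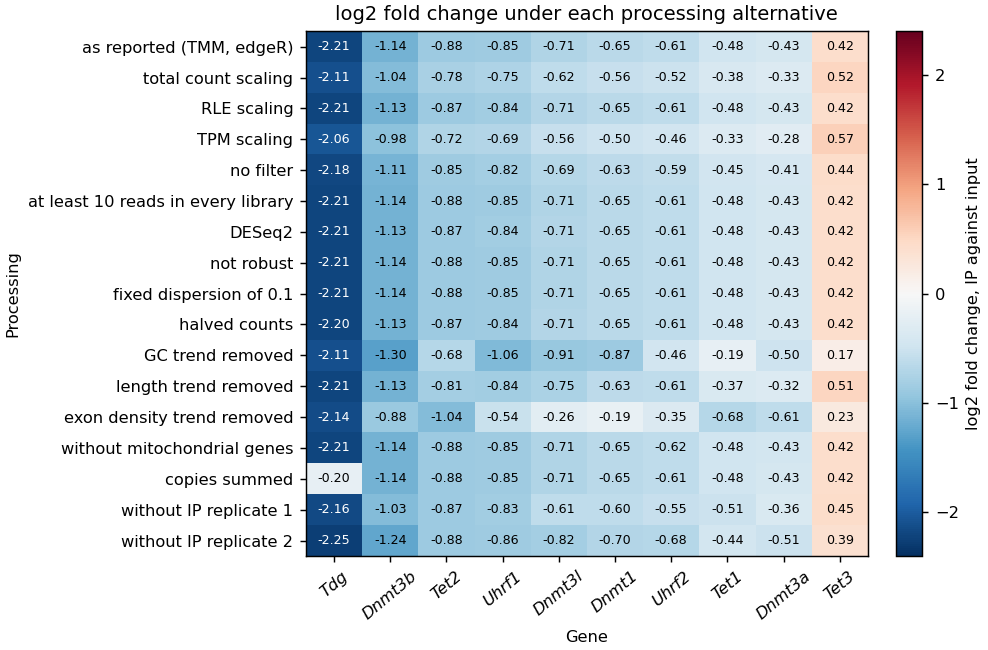
Log2 fold change of IP over input for the 10 genes (columns, ordered by value) under each way of processing (rows), with the value written in each cell and colour from blue (lower in IP) to red (higher in IP). Tdg is below −2 except in the row with copies summed, where it is −0.20, and Tet3 is above 0 in every row. The rows with total count or TPM scaling shift every gene alike. Those with a trend over GC content, length or exon density removed move the genes by unlike amounts.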

How the data were processed

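A single input and 2 YTHDF2 IP libraries were grouped by their titles. The deposited table holds raw read counts by gene. Per the labels and file headers, the authors used fastp 0.19.4, aligned to mm10 with HISAT2 2.2.1, and counted exons of the RefSeq annotation with featureCounts 2.0.3, in paired mode but without the option to count pairs and without strand. Each mate was thus counted on its own (even numbers made up 61.4% to 64.7% of small counts), so the noise of sampling exceeds what the counts imply. The methods describe lysis without detergent and IP from cleared lysate, while the labels describe purified total RNA used in the IP, and the counts do not settle which applies. The authors used DESeq2 1.40.2.

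Counts were tested in R 4.3.3 with edgeR 4.0.16 (filterByExpr, TMM factors 0.957, 1.02 and 1.02, robust quasi-likelihood F test, Benjamini-Hochberg), called at an adjusted p under 0.05 and a fold over 2. The fit has 1 residual degree of freedom, from the 2 IP libraries. The dispersion was 0.00538 (CV 7.33%). The SE came from the F statistic, so it holds the dispersion borrowed across genes. Intervals span 95% (1.96 SE), and single ratios used 0.5 added counts. The floor of 3 counts was 0.0811 to 0.0851 CPM. The script was tested on simulated data. Trends over GC content, length and exon density were removed by lowess. Total count, RLE (relative log expression) and TPM scaling, no filter, a minimum of 10 reads, DESeq2 1.42.0, halved counts, a fixed dispersion, a fit without the robust option, no mitochondrial genes and leaving out each IP library were the other alternatives. Adding near-identical copies (blastn 2.17.0, 97% identity over 150 bases) and named pseudogenes to each member was chosen after seeing the data. By the default of featureCounts, reads at several places are left out. The table held 0 columns of other samples and 0 unnamed rows. The members and lists were chosen with earlier results of these data known. The named genes are all members and, of each list, the 3 highest and 3 lowest with a mean of at least 5 CPM, some of which are not reported here, while genes past 2-fold are listed by name.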

Additional observations from a re-analysis of the deposited data

How the results depend on the processing

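Of 140 member values under the 14 alternatives with a test, 0 changed direction, 134 had the same outcome for the joint call (adjusted p and 2-fold), 4 lost it (Dnmt3b by its fold under scaling by TPM and with the exon density trend removed, and by its adjusted p alone with a fixed dispersion, and Tdg, at −0.20, with copies summed) and 2 gained it (Uhrf1 with the GC trend removed, Tet2 with the exon density trend removed). Few of these alternatives could turn a direction, mainly those with a trend removed or copies summed. Under scaling by TPM, 1 member (Tdg) was depleted, and with copies summed, an alternative chosen after seeing the data, 1 member (Dnmt3b). With the dispersion fixed at 0.1, 1577 genes were enriched and 1531 depleted, against 2936 and 2543, and 1 member (Tdg) was depleted and 1 passed the adjusted p at any fold. At any fold, 12 values missed the adjusted p, 9 with the fixed dispersion and 3 of Tet3 (DESeq2, GC trend, exon density trend). The enriched share of all calls was 53.6% with TMM and 64.0% with TPM. Leaving out an IP library left 1 against 1, so it gave log2 ratios with no test and no counts of genes, from −2.25 to −2.16 for Tdg, from −1.24 to −1.03 for Dnmt3b and from 0.39 to 0.45 for Tet3. Other causes of these changes were not tested. Without an input replicate, the spread of the input is unknown, and no depth of sequencing replaces it. No paired analysis was possible because input and IP share fewer than 2 replicate numbers.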
